A study of Caenorhabditis elegans with 45 samples.

Results

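The miRNA genes of Caenorhabditis elegans that were named late, with a number of 1000 or more, were followed through small RNA libraries of wild type and let-7a mutants. A gene was a member when the deposited miRNA table named it mir- with such a number, with any suffix. The rule left out mir-1018, mir-1829.1, mir-1829.2, mir-1829.3, mir-2208.1, mir-2208.2, mir-2209.1, mir-2220, mir-4807, mir-4808, mir-4812 and mir-8196.2. That gave 109 members among the 257 miRNA genes of the table, which held 121 late genes in all and 136 genes with a lower number or another name. The rule itself uses names only, but the members and lists were chosen with earlier results of these data known. The 12 left-out genes were all detected.

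Worms were whole animals at the mid L4 stage, a late larval stage, grown at 20 °C on E. coli HB101 and taken 45 hours after feeding. The 15 genotypes had 3 libraries each, lettered A, B and C. Wild type was strain VT1367, and all strains, wild type included, carried maIs105 on chromosome V, an integrated col-19::gfp reporter. Each of the 14 mutants was 1 strain with a single base of let-7a changed at 1 position between 9 and 22, named by the old base, the position from the 5′ end and the new base. The let-7 alleles were ma453 (U9G), ma454 (A10U), ma431 (G11U), ma448 (G12U), ma432 (U13A), ma433 (U14A), ma434 (G15A), ma449 (U16G), ma450 (A17U), ma435 (U18A), ma436 (A19U), ma452 (G20C), ma456 (U21A) and ma437 (U22A). G11U, G12U, U13A, U14A, G15A and U16G also carried mnDp1(umnIs25), listed with (X;V) and +/+, and what it holds is not said in the labels. Nothing in the labels says that the 3 libraries of a strain came from separate cultures, so p-values measure the spread between these libraries, which may be technical.

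In animals a miRNA is cut from a hairpin precursor, first in the nucleus by Drosha and then in the cytoplasm by Dicer, and the mature strand guides an Argonaute protein to messenger RNAs. Some precursors are a whole short intron that splicing releases, so that they skip the Drosha step and are called mirtrons. miRNA genes were numbered in the order in which they were registered, and the first C. elegans numbers went to miRNAs that cloning readily found. The regulators of larval timing lin-4 and let-7 carry names of another kind. Later numbers came mostly from deep sequencing.

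The libraries held 1018112 to 3567734 miRNA reads with a median of 2137801. Levels are given as CPM, reads of a gene per 1000000 miRNA reads of its library, which are not divided by length, and ligation does not capture all small RNAs equally. The mutant form of let-7 made up 62.9% to 100% of let-7 reads in the mutant libraries, lowest in G11U replicate A, and 0% in wild type. Replicate B of U9G stood apart from the other 44 libraries in most of the abundant members, as given with their levels, and each result that rests on it is given with and without it. Libraries of whole animals do not tell fewer cells of a type from less RNA per cell.

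Late-named miRNAs were rare molecules in these worms. The 109 members together had 292509 of the 95259678 miRNA reads, which was 0.307%, and the 12 left-out late genes had 0.0602%. Among the members, 25 were listed at 0 in all 45 libraries, 23 had 1 to 9 reads in all libraries together, 45 had at least 10 but fewer than 1000, and 16 had 1000 or more. The 84 detected members had a median level of 0.443 CPM, against 602.5 CPM for the detected genes with a lower number or another name. In all 45 libraries 26 members were found, or 23.9%, against 88 of the 136 other genes, or 64.7%.

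Being listed at 0 was not particular to late names. Of the 136 other genes, 36 (26.5%) were at 0 in all libraries, against 22.9% of the members. Those 36 included lin-4 and mir-1, the muscle miRNA, which worms of this stage make in quantity, so a gene at 0 is described only as listed at 0. A count of 0 over all libraries allows a level of up to 0.0315 CPM (3 counts), for counting error only. The 23 members with fewer than 10 reads held 87 reads in all, and 5 of them, mir-4921, mir-4922.1, mir-8196.1, mir-5592.2 and mir-2217.3, held 1 read each.

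A few members carried nearly all late reads. The 16 with 1000 or more reads had 96.9% of them, and the leading 3, mir-1820, mir-2214 and mir-1022, had 54.1%. mir-1820 ran from 38.1 to 965.5 CPM over the libraries with a median of 549.9. mir-2214 had a median of 547.7 CPM and mir-1022 one of 511.9. These 3 were about equal in the middle of their ranges and more than 2-fold above mir-1822, the next, at 246 CPM.

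Below them the levels fell off without a gap. mir-1020 had a median of 185.5 CPM, mir-1830 of 144.3, mir-1819 of 123.5 and mir-5551 of 101.5, and these 8 members were the only ones above 100 CPM. Of the 136 other genes, 67 were above that level and 43 were above 1000 CPM, which no member reached in its median. mir-4916 (97.8), mir-1821 (83.1), mir-1817 (79.2), mir-2953 (63.1), mir-2212 (58.7), mir-2210 (38.2), mir-4806 (18.8) and mir-8206 (11.9) completed the 16 members with a median above 10 CPM. By median level the highest member, mir-1820, ranked 53 in the table.

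**Figure D1:**
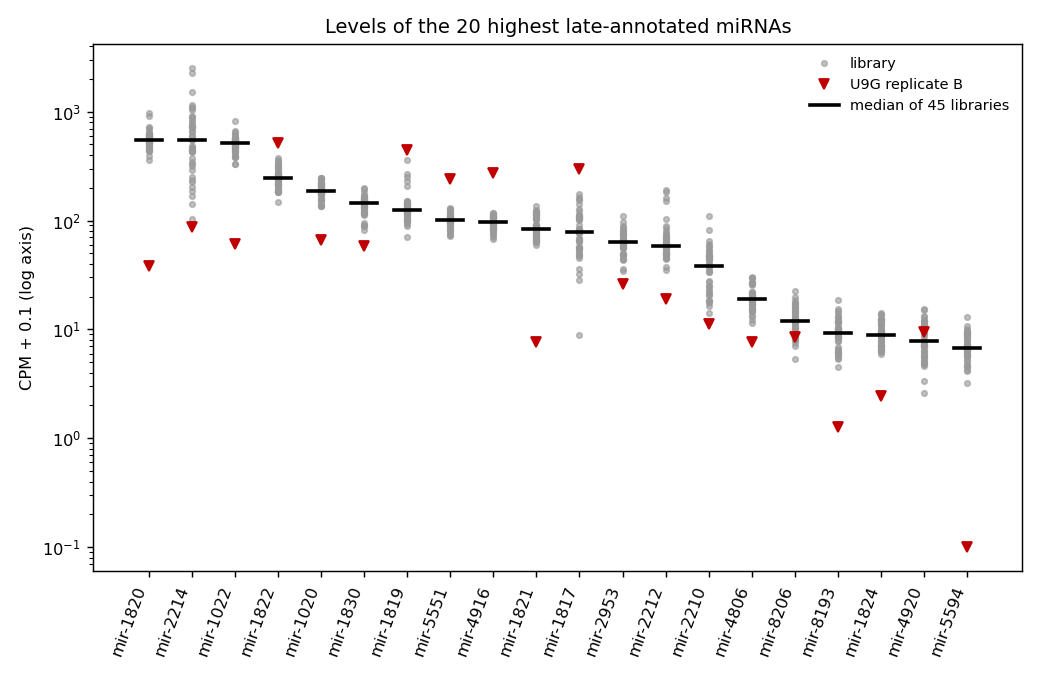
CPM + 0.1 on a log axis for the 20 late-named miRNAs with the highest medians; grey points are libraries, the black bar is the median of all 45 and the red triangle is U9G replicate B. The medians fall from 549.9 CPM for mir-1820 to under 10 CPM, and the red triangle lies outside the grey points for most genes.

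Unlike the medians of the full lists, levels of the genes nearest the limit of the rule overlapped across that limit. Just outside it, mir-798 had a median of 0.523 CPM, mir-799 of 9.96 and mir-800 of 35.6. Just inside it, mir-1019 and mir-1021 had medians of 0 and mir-1020 one of 185.5 CPM.

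Later number series held fewer reads. The 17 members numbered in the 1000s, 15 of them detected, gave 63.6% of late reads, and the 20 in the 2000s, 17 detected, gave 26.2%. The 30 in the 4000s (21 detected) gave 5.04%, the 15 in the 5000s (12 detected) 3.85% and the 27 in the 8000s (19 detected) 1.23%. The leading gene of each series was mir-1820, mir-2214, mir-4916, mir-5551 and mir-8206, in that order. The 24 members whose name ends in a copy number after a point had 478 reads in all, 0.163% of late reads. None of these copies was found in all libraries, and mir-1832.2 led them with 147 reads. The 12 left-out late genes, 9 of them found in all libraries, include further copies such as mir-2208.1 and mir-2209.1. These counts therefore do not speak for all late copies. How reads shared by near-identical copies were assigned is not given in the sources used here, so single copies are uncertain.

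All 109 members were matched by WormBase gene ID to the WBcel235 annotation, from which all positions are given. The build behind the counts is not given in the sources used here. By that annotation 56 members were intergenic, 36 lay in an intron of a host gene on the same strand, 12 in an intron of a gene on the opposite strand and 5 overlapped an exon. The 36 in same-strand introns had 47.1% of late reads, of which mir-2214 was the largest part, and the intergenic ones had 51.1%. The 12 opposite-strand members had 0.494%, led by mir-1824.

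The host-intron members among the leading genes each lay in a host gene of their own. mir-2214 lies on chromosome III at 7278715 to 7278778 on the plus strand in an intron of B0361.11. mir-1822 lies on II at 6015534 to 6015627, plus strand, in an intron of ZK84.2, and mir-1830 on II at 4371838 to 4371907, minus strand, in an intron of paic-1, an AIR carboxylase gene of purine synthesis. mir-2953 lies in an intron of F41G3.5 and mir-4806 in one of ras-1. The intergenic leaders were mir-1820 (IV, 7767461 to 7767567, plus), mir-1022 (X, 6435425 to 6435512, minus), mir-5551 (IV, 9757508 to 9757616, plus), mir-1817 (I, 10869370 to 10869474, minus) and mir-1821 (V, 3042530 to 3042633, minus), which sits beside mir-792. mir-2210 overlaps an exon of ZK593.2 on IV.

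For 7 members the precursor filled a host intron to within 5 bases at each end, as a mirtron does. They were mir-1020 in T16G12.1, mir-4916 in T09B4.2, mir-4920 in sph-1, mir-4926 in ari-1.3, mir-1019 in dyf-5, mir-4924 in T11G6.5 and mir-4927 in M01F1.4. All 7 were detected and 4 were found in all libraries. Their 28669 reads were 9.8% of late reads, and mir-1020 held 17624 of them.

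The share of late-named miRNAs in all miRNA reads was compared over the libraries next. It ran from 0.227% in U9G replicate B to 0.478% in wild-type replicate C with a median of 0.307%, and from 0.23% in G20C replicate A without the former. Wild type had shares of 0.267%, 0.317% and 0.478% in replicates A, B and C, a mean of 0.354% ± 0.11 (SD, n = 3). The highest genotype mean was that of A10U, 0.357% ± 0.0539 (n = 3). The lowest were those of U9G, 0.265% ± 0.0394, or 0.284% without replicate B, and of G20C, 0.268% ± 0.0463. Apart from U9G, the SD between the 14 genotype means was 0.0282 percentage points and the pooled SD within genotypes was 0.0584, so the former was the smaller.

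One gene, mir-2214, made most of the spread of the share over libraries. It held 3.8% of late reads in U9G replicate B, 3.91% in U14A replicate A and 52.8% in wild-type replicate C. With mir-2214 left out the shares of wild type were 0.223%, 0.242% and 0.226%, and the range over all libraries was 0.2% to 0.324% with a median of 0.244%. The SD within genotypes then fell to 0.021 percentage points and that between genotype means to 0.0161. Without mir-2214 the mean was highest in A19U, 0.278% ± 0.0421, with G15A at 0.278% ± 0.0106, and wild type was at 0.23% ± 0.0102. All 3 libraries lay above the 3 wild-type ones in G15A (0.268% to 0.289%), U14A (0.247% to 0.258%) and A19U (0.2422% to 0.324%), the last narrowly, since the highest wild-type library was at 0.2418%. Every mutant was set against the same 3 wild-type libraries, and whether such gaps exceed chance was not tested.

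**Figure D2:**
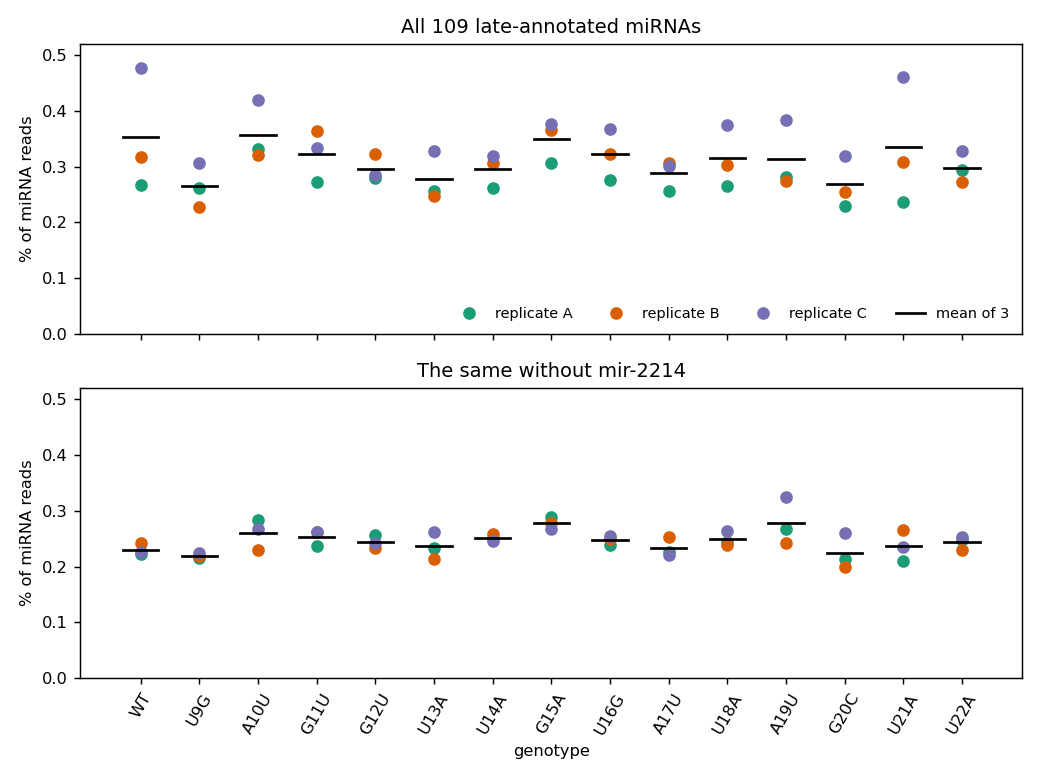
Share of miRNA reads (%) in all 109 late-named miRNAs (top) and in the same without mir-2214 (bottom), by genotype; points are libraries coloured by replicate letter and bars are means of 3. Wild type spreads from 0.267% to 0.478% at the top and from 0.223% to 0.242% at the bottom.

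Between 39 and 58 members were detected in a library, with a median of 51. G15A replicate A, the library with the fewest miRNA reads, had 39, and U9G replicate B and U22A replicate A had 58. With at least 3 reads asked for, the median was 35, and with at least 10 it was 24. Each library had 5 to 16 members seen by a single read.

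The number detected followed depth. Over the 44 libraries without U9G replicate B, Pearson's r between miRNA reads and members detected was 0.694 and Spearman's rho 0.626, with permutation p of 2e-05, the smallest that 100000 resamples give, and 6e-05. Adjusted over 3 relations these were 6e-05 and 0.00018, and r was 0.556 without the 2 libraries farthest from the median depth. With every library thinned to 1018112 miRNA reads, 38 to 49 members were detected with a median of 43. After thinning r was 0.0578 and rho 0.0317 (permutation p = 0.71 and 0.84).

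Wild type had 44, 44 and 48 members in replicates A, B and C, and 38, 42 and 45 after thinning. A10U had 52, 49 and 56, and 48, 45 and 49 after thinning. The thinned A10U libraries were thus level with or above the highest wild-type library. Single libraries of G12U, U14A and U18A also reached 48 after thinning. Thinning was drawn only 1 time, all mutants were set against the same wild-type libraries, and whether A10U exceeds chance was not tested. The genes with a lower number or another name varied far less, between 90 and 95 detected per library.

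**Figure D3:**
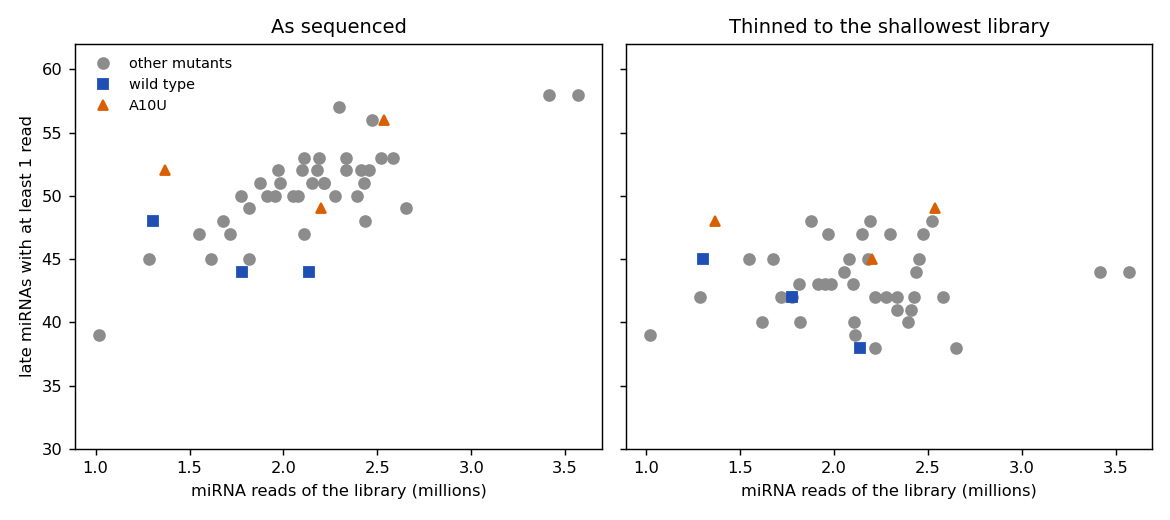
Late-named miRNAs with at least 1 read against miRNA reads of the library in units of 1000000, as sequenced (left) and after thinning to the shallowest library (right); blue squares are wild type, orange triangles A10U and grey circles the other mutants. The number rises with depth on the left, from 39 to 58, and lies between 38 and 49 on the right.

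U9G replicate B had an unlike set of late reads. Of the 16 leading members, 5 were above all 44 other libraries in it, namely mir-1822, mir-1819, mir-5551, mir-4916 and mir-1817. Another 10 were below all of them and mir-8206 was within their range. This was not particular to the members. Of 87 other genes with enough reads, 21 were above and 36 below all 44, and of 27 members 8 and 13 were, in that library. mir-1820 was at 38.1 CPM there against 485.3 and 356.3 CPM in replicates A and C of the same strain. mir-1821 was at 7.61 CPM against 67.4 and 83.1. mir-1819 went the other way, with 449 CPM against 138.3 and 98.1.

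Most reads of mir-1019, one of the intron-filling members, came from that library. It had 106 of its 123 reads there, 0 in replicates A and C of U9G and 0 in wild type. The sum over all members hid these shifts, since without mir-2214 the share was 0.219% in replicate B, 0.216% in A and 0.224% in C. The other genes shifted as well. Of the 87 other genes with enough reads, 24 were more than 2-fold higher and 33 more than 2-fold lower in replicate B than in the mean of A and C, and of 27 members 8 and 11 were.

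Genotype differences were tested with edgeR over all miRNAs at once. Of the 109 members 30 passed the filter on low counts, and 33 passed it without U9G replicate B. The other 79 had too few reads for a test, or 76 without that library, so no count here speaks for all members.

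In the test for any difference among the 15 genotypes, 1 member passed, mir-1830, against 15.4% of all miRNAs tested (20 of 130). Its adjusted p by edgeR was 0.00572. With U9G replicate B left out, mir-1822 passed with an adjusted p of 0.0352 and mir-1830 with 0.039 by edgeR, 2 of 33 members against 15.7% of all miRNAs. Neither fit held a term for the replicate letter. With such a term added, 9 members passed without U9G replicate B, as given with the processing below. Whether the members passed less often than other miRNAs was not tested. Next in order by p stood mir-1819, mir-1822, mir-8206 and mir-1817 with all libraries (edgeR adjusted p of 0.101 to 0.11) and mir-1819, mir-8206 and mir-1821 without U9G replicate B (0.0639 to 0.0824).

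Each mutant was compared with wild type in the same fits, so that all 14 comparisons share the 3 wild-type libraries. With all libraries 2 of 420 tests of members passed, both in U9G, and 23 were under an unadjusted p of 0.05; 1.43% of the 1820 tests of all miRNAs passed. The share of all miRNAs that passed was 9.23% in U9G, 3.85% in A10U, 1.54% in each of G11U, G12U and U18A, 0.769% in each of G15A, A19U and G20C, and 0% in the other 6 mutants. With U9G replicate B left out 3 of 462 passed, 1 each in G11U, G12U and G15A, and 30 were under 0.05; 1.65% of the 1876 tests of all miRNAs passed. That share was then 5.22% in A10U, 4.48% in G11U, 3.73% in G15A, 2.99% in each of G12U and U18A, 1.49% in each of A19U and U22A, 0.746% in G20C and 0% in the other 6, U9G among them. The median change of the members tested lay between -0.16 (U9G) and 0.14 (G12U) on the log2 scale by mutant with all libraries, and that of all miRNAs between -0.025 and 0.043. With U9G replicate B left out the median of the members was -0.051 in U9G, and the range ran from -0.075 (U18A) to 0.14 (U14A).

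mir-1822 was lowest in wild type of all genotypes. Its levels in wild type were 148.3, 200.7 and 218.5 CPM in replicates A, B and C. In G15A they were 304.5, 319 and 374 CPM, in G12U 241.2, 332 and 342.4, and in G11U 260.1, 308.7 and 356. None of these 9 libraries overlapped wild type. In the fit without U9G replicate B, mir-1822 was higher by 0.68 on the log2 scale in G15A (SE 0.18, edgeR adjusted p = 0.0174; 3.73% of all miRNAs passed). In G12U it was higher by 0.70 (SE 0.18, edgeR adjusted p = 0.0179; 2.99% passed), and in G11U by 0.61 (SE 0.18, edgeR adjusted p = 0.0419; 4.48% passed).

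These 3 calls of mir-1822 depended on which libraries were in the fit, the one in G11U most. With U9G replicate B in the fit none of them passed, at edgeR adjusted p of 0.152 in G15A and higher in the others. Leaving out wild-type replicate A or B besides left 0 calls of members, and leaving out G15A replicate B left the one in G12U. All libraries of mir-1822 lay above wild type in 7 mutants. Of these, G11U, G12U, G15A, U13A (246.4 to 325.2 CPM) and U16G (228.6 to 301) carry mnDp1, and U9G and U21A (242.6 to 275.4) do not. U13A, U16G and U21A did not pass the test, and the 3 libraries of U14A, which also carries mnDp1, overlapped wild type. All 7 mutants were set against the same 3 wild-type libraries. Such gaps were not counted over all miRNAs, and whether 7 of them exceed chance was not tested.

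In U9G the call of mir-1822 rested on replicate B. Its levels there were 221.8, 511.9 and 292 CPM, all above wild type, replicate A by a narrow margin. With all libraries it was higher by 0.91 (SE 0.244, edgeR adjusted p = 0.00998). Without replicate B the difference was 0.41 (SE 0.199, edgeR adjusted p = 0.988).

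mir-1830 was low in U9G and, to a lesser degree, in U21A. In U9G it was at 82.3, 58.3 and 88.6 CPM in replicates A, B and C; wild type had 153.4, 133.8 and 143.3. The groups did not overlap, and among the 42 libraries of the other genotypes 1, U21A replicate C at 88.61 CPM, lay as low as U9G replicate C at 88.64. With all libraries mir-1830 was lower in U9G by a log2 change of -0.90 (SE 0.202, edgeR adjusted p = 0.00155). Without replicate B the change was -0.79 (SE 0.221, unadjusted p = 0.00118), and edgeR's adjusted p was 0.158, past no threshold.

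In U21A the libraries of mir-1830 were at 90.2, 115.7 and 88.6 CPM, all below wild type. The change there was -0.57 (SE 0.194) without U9G replicate B, with an edgeR adjusted p of 0.459. The 12 other mutants overlapped wild type. Highest among genotypes was U14A with a mean of 163.2 CPM. Within a genotype the libraries differed by up to 1.65-fold, in U18A.

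**Figure D4:**
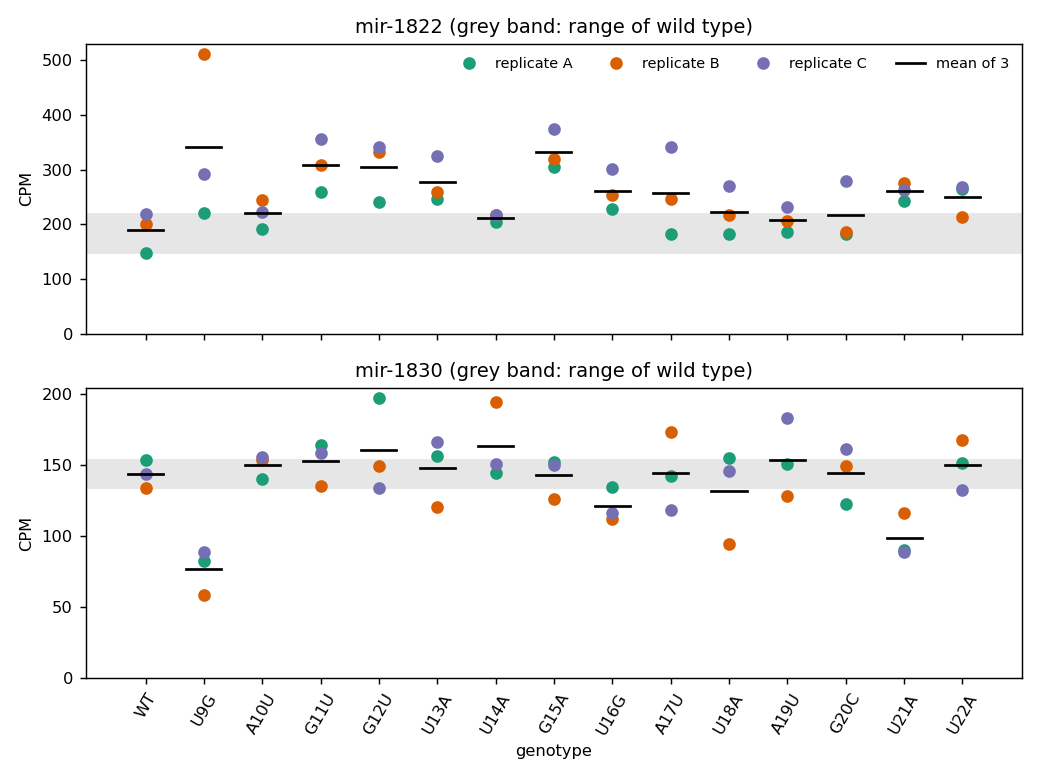
CPM of mir-1822 (top) and mir-1830 (bottom) by genotype; points are libraries coloured by replicate letter, bars are means of 3 and the grey band is the range of wild type. mir-1822 lies above the band in all libraries of 7 mutants, and mir-1830 below it in all libraries of U9G and U21A.

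mir-1819 and mir-2212 are neighbours on chromosome X, at 16207955 to 16208035 and 16207829 to 16207888 on the plus strand, and moved together in a few libraries. For mir-1819 the A10U libraries were at 361.4, 119.1 and 208.9 CPM, those of U18A at 119, 231.9 and 253.1, and those of A19U at 148.2, 123.5 and 269.2. mir-2212 was at 182.2, 51.8 and 151.8 CPM in A10U, at 49.6, 104 and 159.9 in U18A and at 77.1, 48.8 and 190.4 in A19U. The same 5 libraries stood out for both genes: A10U A and C, U18A B and C, and A19U C. Their sister libraries lay with the rest, so the genotypes did not part from wild type, at 140.3, 127.1 and 102.7 CPM for mir-1819 and 44, 49.5 and 69 for mir-2212.

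For the other 12 genotypes the relation was computed apart, since the 5 libraries stood away from the rest. Over their 35 libraries without U9G replicate B, a set chosen after the values were seen, Pearson's r of the log2 values was 0.354 and Spearman's rho 0.294 (permutation p = 0.038 and 0.088, adjusted 0.057 and 0.13). In U9G replicate B the 2 genes went apart, mir-1819 to 449 CPM and mir-2212 to 19 CPM. In A10U mir-2212 was higher by 1.18 without that library (SE 0.388, edgeR adjusted p = 0.077), and mir-1819 by 0.82 (SE 0.297, edgeR adjusted p = 0.115), neither past the threshold.

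**Figure D5:**
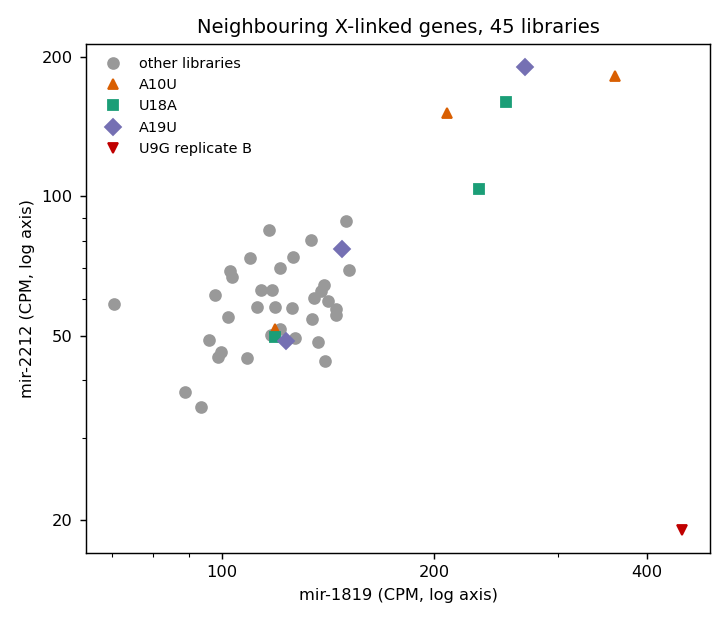
mir-2212 against mir-1819, both in CPM on log axes, for all 45 libraries; A10U, U18A and A19U are coloured, U9G replicate B is the red triangle and grey points are the rest. The 5 libraries with mir-2212 above 100 CPM are also the 5 highest in mir-1819 after U9G replicate B.

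The other neighbouring members were close to the limit of detection. mir-4921, mir-4923.1, mir-4923.2 and mir-4925 on X lie near the left-out mir-1018, and mir-4809 and mir-4810.2 near mir-2220 and mir-4808. The 8 members with another member within 1000 bases on the same strand held 7% of late reads, nearly all of them of mir-1819 (13924 reads) and mir-2212 (6370 reads). mir-4809 had 79 reads and mir-4810.2 had 70.

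Some of the remaining leaders lay apart from wild type in a mutant without passing the test. mir-1022 was at 549.1, 827.8 and 652.1 CPM in G15A against 423.8, 518.9 and 528.9 in wild type. mir-1821 was at 116.9, 135.8 and 107.5 in G15A against 65.5, 101.2 and 71.3. mir-1020, the mirtron, was at 151.4, 135.4 and 156.5 in A10U, below wild type at 182, 182.2 and 225.4. In each of these the groups did not overlap, and the adjusted p by edgeR missed 0.05. Over the 14 mutants all libraries lay above wild type in 3 for mir-1022 and in 2 for mir-1821, and below it in 2 for mir-1020. mir-1820, mir-1819 and mir-2214 overlapped wild type in all 14. Groups of 3 libraries can part by chance, and whether these parted more often than that was not tested.

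mir-1817 was lowest in G15A, at 8.84, 28.3 and 63.9 CPM in replicates A, B and C. Wild type, at 153.9, 57.4 and 64.4, overlapped it. Its log2 change without U9G replicate B was -1.62 with an SE of 0.527 and an edgeR adjusted p of 0.0797. The libraries of mir-1817 differed by up to 7.22-fold within a genotype.

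mir-2214 varied most among the leaders. Wild type was at 438.3, 750 and 2522 CPM, U21A at 252.7, 430.9 and 2254 and A10U at 471.2, 913.9 and 1518. U14A had the lowest library besides U9G replicate B, at 102.4 CPM. The pooled SD within genotypes was 516 CPM and the SD between genotype means 246. The former includes differences between replicate letters, since A was lowest in 13 and C highest in 12 of the 14 genotypes other than U9G. These SDs therefore do not decide whether a genotype stood out at matched letters. Wild type lay above the median of the letter in A, B and C (252.7, 599 and 806.7 CPM), and so did A10U. In edgeR's estimate of biological variation mir-2214 ranked 2 of 130 miRNAs, after mir-8200.

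mir-8200 was found in 32 of the 45 libraries, mostly by few reads. It had 0 reads in the 3 wild-type libraries, where 0 of 5221039 reads allow up to 0.575 CPM, but 32 reads in U21A replicate B and 0 in A and C. A19U replicate A had 25 reads, replicate B 3 and replicate C 0. U16G replicate B had 16 reads, A17U replicate B 14 and G11U replicate B 13. In each of these genotypes 1 library held most of the reads. In 7 of the 14 mutants all 3 libraries had at least 1 read, while wild type had none. These counts lie near the limit of detection, and no fold against wild type is given.

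The mean of the 14 mutants did not part from wild type in any member. edgeR called 0 of 30 members and 0% of all miRNAs, DESeq2 called 0 members, and 2 members were under an unadjusted p of 0.05. They were mir-1822, higher by 0.41, and mir-2214, with a log2 change of -1.15, each at an edgeR adjusted p of 0.729; mir-4926 came next with -0.85. In the other fit mir-1822 was higher by 0.38 (SE 0.137, unadjusted p = 0.00893), which edgeR adjusted to 0.711.

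Counts were also summed by strain, and the 6 strains that carry mnDp1 were set against the 8 mutants that do not. Those 6 strains, G11U to U16G, are changed at neighbouring positions of let-7a, so mnDp1 and position cannot be told apart. Of 36 members tested edgeR called 0, against 0% of all 137 miRNAs, DESeq2 called 0, and 2 members were under an unadjusted p of 0.05. mir-1821 was higher with mnDp1 by 0.35 and mir-1819 lower by a log2 change of -0.46, each at an edgeR adjusted p of 0.412. mir-2212 came next with -0.37 (edgeR adjusted p = 0.447). Without U9G replicate B the leading 3 were mir-2212 at -0.45, mir-1821 at 0.26 and mir-1822 at 0.18, with edgeR adjusted p of 0.331, 0.347 and 0.426.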

How the data were processed

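Small RNA was sequenced from 45 libraries of 15 genotypes. The authors deposited a count of reads per miRNA gene and, in a second table, counts of the let-7 forms per library. Per the submitters' processing notes, cutadapt 1.9, Bowtie2 2.3.4.3 and featureCounts of Subread 1.6.2 were used; their settings, the genome build and the strand rule are not given in the sources used here. The let-7 row was replaced by the count of the form that each genotype encodes. CPM used these totals, without a further scaling factor. The 6 other per-sample columns of the second table were not used. No libraries held identical values.

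All 45 libraries entered 1 edgeR 4.0.16 fit (R 4.3.3) with TMM scaling, filterByExpr by genotype and the quasi-likelihood F-test, which tested 130 miRNAs. A second fit left out U9G replicate B and tested 134. Benjamini-Hochberg adjustment ran within each comparison, over all miRNAs, with a threshold of 0.05. SEs came from the F statistic. TMM factors ran from 0.887 to 1.13. DESeq2 1.42.0 was an alternative. Reads carry no molecular identifiers, so intervals and floors cover counting error only. The scripts were tested on simulated data.

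Named genes were the 12 with the highest median CPM, those past the threshold in a mutant, those with the smallest p in the tests of genotypes (5), of mnDp1 (3) and of the mean of mutants (3), and neighbours within 1000 bases. Others, such as mir-8200, mir-1019, mir-2210 and mir-4806, were named after their values were seen. The members and lists were chosen with earlier results of these data known.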

Additional observations from a re-analysis of the deposited data

Results flagged for a closer look

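G15A had the highest mean of mir-1820 among the 6 strains with mnDp1, 692.5 CPM, and the next strain was at 587.7 CPM. Its libraries were at 965.5, 589.7 and 522.3 CPM, so replicate A carried the distance. Strain means of the 12 leading members, of the share of late reads and of the number detected were screened in 28 groups of this kind. Of these 1 stood apart, narrowly past the limit of the screen, where chance alone marks about 1 in 20.

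The change of mir-1830 from wild type differed among the 14 mutants. The edgeR test of that difference, which sets the mutants against each other, gave an adjusted p of 0.00429 with all libraries and 0.0302 without U9G replicate B. U9G and U21A held the lowest libraries. No other member passed this test, with mir-1819 next at 0.0776 with all libraries and at 0.0502 without U9G replicate B.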

How the results depend on the processing

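Calls of members against wild type, 2 with all libraries, numbered 4 with no filter, 10 with the other 13 mutants as the reference and 0 in fits of only the 6 libraries compared; leaving out 1 library gave 1 to 11, lowest without wild-type replicate A (1) and highest without U9G replicate C (11) or A (6). Without U9G replicate B there were 3, 5 with DESeq2 and 7 with the replicate letter as a block, and 0 to 7 with a further library left out. Members that differed among genotypes, 1 with all libraries, were 2 with no filter, 2 at a minimum of 10 counts in every library, 3 with the replicate block and 4 with DESeq2, and 1 to 4 with 1 library left out. Without U9G replicate B the 2 became 7 with DESeq2, 9 with the replicate block and 1 to 6 with a further library left out. With the block and all libraries, calls against wild type numbered 3. The cause of these changes was not tested.

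The letters did not pair libraries by the rule that all pairs correlate above 0.1: of 301 same-letter pairs 221 did, with a median of 0.258, against -0.135 between letters. The main fits therefore hold no term for the letter. Failing so strict a rule does not show that the letter is without effect. Of the 134 miRNAs in the fit with a letter term, 51.5% differed by letter. Calls for the mean of the mutants and for mnDp1 were 0 under the alternatives run. The call of mir-1822 in G11U without U9G replicate B was lost in 23 of 44 further leave-outs, that in G12U in 4 and that in G15A in 5. The median share was 0.306% to 0.307% with 1 library left out and 0.244% without mir-2214, and the median number detected was 24 at 10 reads and 50.5 to 51 with 1 library left out. Counts of few reads limit the 79 members not tested.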

Other observations

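Replicate letters, which the labels do not tie to a day or batch, went with the level of several late-named miRNAs in most genotypes. In 13 of the 14 genotypes other than U9G the library lettered A was the lowest in mir-2214, and in 12 the library lettered C was the highest. The medians were 252.7 CPM over the 15 A libraries, 599 over the 14 B libraries and 806.7 over the 15 C libraries. mir-1822 had the same pattern in smaller steps, lowest in A in 13 genotypes and highest in C in 12, with medians of 221.8, 245.5 and 280.2 CPM. The mir-1822 differences between strains in the report are means over A, B and C, which weigh the letters equally, except in U9G without replicate B.

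Others ran against this. mir-2210 was lowest in C in 12 of the 14 genotypes, with medians of 46.9, 45.5 and 20.8 CPM in A, B and C. mir-2953 was lowest in C in 11 and highest in A in 10, with medians of 75, 63.4 and 56 CPM, and mir-1817 was highest in A in 10.

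In an edgeR fit with genotype and letter as terms, without U9G replicate B and chosen after the data were seen, 10 of 33 members differed by letter, against 51.5% of all 134 miRNAs. mir-2214 led them: C exceeded A by 1.75 and B exceeded A by 1.24 on the log2 scale (edgeR adjusted p = 7.35e-08). mir-2210 followed, with C below A by a log2 change of -1.10 (edgeR adjusted p = 5.08e-07). mir-1830, mir-1819 and mir-5551 did not pass (edgeR adjusted p of 0.508, 0.793 and 0.465). What the letter stands for was not tested.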
